A study of Homo sapiens with 3 samples.

Results

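SCIN, LXN, SPTSSB, LURAP1L and LINC02303 were 5 of the 22499 genes with a symbol in single-cell counts of CAMA-1 breast cancer spheroids under ribociclib. They were chosen from measured values, because each was among the lowest genes in resistant over sensitive cells or in cocultured over monocultured sensitive cells. They are described here across the lineages, culture conditions, cell cycle phases and clusters, with the question of whether their levels differed between G1 and cycling cells of one population.

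CAMA-1 is an established estrogen receptor-positive breast cancer line. Its sensitive lineage carried the fluorescent transgene mVenus, and its resistant lineage, selected by long growth with ribociclib, carried mCherry. Spheroids of 2000 plated cells that were 100% sensitive, 50% sensitive or 0% sensitive were all treated with 1 µM ribociclib (labelled with DMSO) for 11 days, so no untreated library was measured, and 1 library was made per condition. A deposited annotation splits the coculture by lineage, which gave 4 populations of 1 line, sensitive cells from monoculture and from coculture and resistant cells from coculture and from monoculture. Whether either lineage is 1 clone is not given in the sources used here. With 1 library per condition no difference could be tested across samples and no p-value was computed, because cells of one library are not replicates, and every interval is a 95% interval for counting error only.

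Ribociclib inhibits the kinases CDK4 and CDK6, which with D-type cyclins phosphorylate RB and let a cell leave G1, so sensitive cells tend to stop in G1 under the drug. The 5 genes have different roles. SCIN encodes scinderin, a calcium-dependent protein of the gelsolin family that severs and caps actin filaments. LXN encodes latexin, an inhibitor of metallocarboxypeptidases. SPTSSB encodes a small subunit that activates serine palmitoyltransferase, the enzyme that starts sphingolipid synthesis. LURAP1L is a relative of LURAP1, an adaptor protein of actin-regulating kinases, and LINC02303 is a long non-coding RNA.

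On GRCh37, SCIN lay at chr7:12610203-12699807 on the plus strand and LURAP1L at chr9:12775019-12823059 on the plus strand. LXN at chr3:158363611-158390437 and SPTSSB at chr3:161062586-161090668 lay on the minus strand of the same chromosome, and LINC02303 lay at chr14:46175453-46185155 on the minus strand. These spans are whole genes, exons and introns, from GENCODE 44 lifted to GRCh37. The 250 bases before the RefSeq start of a gene were read on GRCh38.p14 for 4 of the 5 members, all but LINC02303. Promoters are shown for SCIN and SPTSSB, the members furthest apart in cycling over G1 cells of sensitive monoculture, with log2 ratios of -0.10 and -1.36. SPTSSB was not the lowest member there without a cluster described below. In each of the other populations another member had a lower ratio than SPTSSB. The SCIN promoter is chr7:12570470-12570719, plus strand, and the SPTSSB promoter is chr3:161371518-161371767, minus strand. Both are written 5′ to 3′ along the gene, and capitals mark matches to the motifs named after them.
SCIN promoter: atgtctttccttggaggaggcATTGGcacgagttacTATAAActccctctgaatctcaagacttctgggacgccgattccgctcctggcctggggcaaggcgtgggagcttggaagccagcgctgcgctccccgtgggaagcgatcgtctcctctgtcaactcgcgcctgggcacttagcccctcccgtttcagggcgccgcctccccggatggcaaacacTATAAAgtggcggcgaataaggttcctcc
SPTSSB promoter: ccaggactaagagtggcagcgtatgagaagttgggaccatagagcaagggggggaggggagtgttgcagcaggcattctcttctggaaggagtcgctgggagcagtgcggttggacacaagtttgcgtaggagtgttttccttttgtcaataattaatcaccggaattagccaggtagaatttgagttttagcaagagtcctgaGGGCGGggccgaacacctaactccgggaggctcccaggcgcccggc

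Motifs were searched on both strands. The TATA letters TATAAA stood at 214 to 209 and at 29 to 24 bases before the start of SCIN, and were also found for LXN and LURAP1L, so 3 of the 4 promoters held them, beside 10.7% of 35116 RefSeq promoters. GGGCGG, the letters of a GC box, stood at 46 to 41 bases before SPTSSB and also before LXN, beside 42.6% of all promoters. CCAAT was found for SCIN alone, on the opposite strand, beside 32.0% of all promoters. The E2F letters TTTNNCGC were in 0 of the 4, beside 5.92% of all promoters, the AP-1 letters TGANTCA in 0 of the 4, beside 6.57%, and TTTGAA, the letters of a CHR element, in LURAP1L alone, beside 13.3%. The SCIN promoter held 18 CpG and the SPTSSB promoter 10, with a GC content of 60% and 54.8%, against a median of 58% over all promoters. These matches describe letters only.

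The annotation held 3329 cells of sensitive monoculture, 2059 of sensitive coculture, 6292 of resistant coculture and 7557 of resistant monoculture, with a median of 27622 to 35443 unique molecular identifiers (UMIs, each a counted RNA molecule) per cell. Levels are UMIs summed over the cells of a population, as counts per 1e6 of their UMIs (CPM). The luminal markers KRT8 (1683 to 2140 CPM), KRT18, KRT19, EPCAM, GATA3, FOXA1 and ESR1 (14.2 to 20.2 CPM) were found in every population, while the immune, fibroblast and endothelial markers reached 3.61 CPM at most, in COL1A1. Annotated sensitive cells had 0 mCherry UMIs and annotated resistant cells 0 mVenus UMIs. The shares of cells called S or G2M by the authors, named cycling here, were 11.0%, 44.7%, 50.3% and 50.0% in the order given above. Cycling cells held more UMIs than G1 cells, with medians of 37177 and 26713 in sensitive monoculture. Between 34 and 60 barcodes were shared by pairs of libraries, 7 to 17 of them annotated in both.

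All 5 members had their highest level in sensitive monoculture. The values that chose them were the log2 ratios of CPM plus 1, and they are given as a description. In resistant over sensitive monoculture SCIN ranked 2 among 2302 genes whose mean was 50 CPM or more, LXN 5, LURAP1L 9 and SPTSSB 30, while LINC02303, with a mean under 50 CPM, ranked 2 among all 12968 genes with at least 50 UMIs. A log2 ratio of -1 or less was reached by 5 of 5 members, beside 4.1% of all genes in that comparison. In cocultured over monocultured sensitive cells SPTSSB ranked 5, LURAP1L 6, LINC02303 7 and LXN 8 among 2317 genes, and SCIN ranked 280. There 4 of 5 members reached a log2 ratio of -1 or less, beside 1.04% of all genes. Other low genes are listed below from the 5 lowest between the monocultures and the 10 lowest in coculture over monoculture, which are not the limits of the choice. At these limits LXN stood at -2.65 just inside and EDN1 at -2.46 just outside between the monocultures. In coculture over monoculture IGFBP5 stood at -1.28 just inside and ID3 at -1.27 just outside.

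SCIN, the actin-severing member, differed mainly between the lineages. In sensitive cells its level was 104.5 CPM (102 to 107) without resistant cells and 78.3 CPM (76.2 to 80.4) in coculture. In resistant cells it was at 11.3 CPM (10.8 to 11.7) in coculture and 7.96 CPM (7.63 to 8.31) in monoculture. Both sensitive populations thus stood above the resistant ones, 13.1-fold (12.5 to 13.8) between the monocultures and 6.95-fold (6.62 to 7.30) within the coculture library. In sensitive cells SCIN was 1.34-fold lower in coculture (1.29 to 1.38), the smallest difference of any member. With a mitochondrial share below 15%, SCIN stood there at a log2 ratio of -0.21 in place of -0.41. Within sensitive monoculture it was at 105.5 CPM in G1 cells and 98.3 CPM in cycling cells, and within sensitive coculture at 78.1 and 78.4 CPM. The cycling-to-G1 ratio was 0.932 (0.879 to 0.987) in the former and 1.00 (0.952 to 1.06) in the latter. In resistant cells the cycling level was the higher one, at 12.9 against 9.34 CPM in coculture, a ratio of 1.39 (1.27 to 1.51), and at 9.43 against 6.34 CPM in monoculture, a ratio of 1.49 (1.36 to 1.62). The name of an arrest-linked gene therefore did not hold for SCIN by this measure.

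LXN, the carboxypeptidase inhibitor, was lower both in resistant cells and in coculture. Sensitive cells had 136 CPM (134 to 139) in monoculture and 51.1 CPM (49.5 to 52.8) in coculture, 2.67-fold lower (2.57 to 2.77). It was at 21.8 CPM (21.1 to 22.4) in resistant coculture and 20.9 CPM (20.3 to 21.4) in resistant monoculture, which differed by a ratio of 1.04 (1.00 to 1.08). The resistant populations were therefore nearly level with each other, 6.53-fold (6.33 to 6.74) below sensitive monoculture and 2.35-fold (2.25 to 2.45) below sensitive coculture. In each population its G1 level was above its cycling level. The values were 144 and 89.5 CPM in sensitive monoculture, 60.8 and 40.6 in sensitive coculture, 25.6 and 18.4 in resistant coculture and 23.3 and 18.7 in resistant monoculture. The fold from cycling to G1 cells ran from 1.61 (1.52 to 1.71) in sensitive monoculture to 1.25 (1.18 to 1.31) in resistant monoculture.

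SPTSSB, the activator of serine palmitoyltransferase, was high in sensitive monoculture and close together in the other 3 populations. It was at 123 CPM (120 to 125) in sensitive monoculture, 39.8 CPM (38.3 to 41.3) in sensitive coculture, 50.5 CPM (49.6 to 51.5) in resistant coculture and 45.4 CPM (44.6 to 46.2) in resistant monoculture. In sensitive cells it was 3.08-fold lower in coculture (2.96 to 3.21), below its level in the resistant cells of the same library, which was 1.27-fold higher (1.22 to 1.33). Without cluster 8, described below, which held 20.5% of sensitive cells in monoculture against 2.14% in coculture, its log2 ratio of coculture to monoculture was -1.06 in place of -1.60, and that of resistant to sensitive monoculture was -0.80 in place of -1.41 and so no longer at -1 or less. This was the only member with a higher level in resistant than in sensitive coculture cells. In sensitive monoculture it had the largest fold between phases of the members, though not without cluster 8, where its log2 ratio was -0.71 and that of LINC02303 -1.14. It was at 134 CPM in G1 cells and 51.7 CPM in cycling cells, 2.59-fold apart (2.40 to 2.80), with S cells at 49.9 and G2M cells at 53.4 CPM. In the other populations its G1 and cycling levels were 46.0 and 33.0 CPM in sensitive coculture, 57.6 and 44.4 in resistant coculture and 50.9 and 40.5 in resistant monoculture. Those folds were between 1.25 and 1.39.

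LURAP1L, the LURAP1 relative, was also lower in resistant cells and in coculture of sensitive cells. Sensitive cells had 129 CPM (127 to 131) in monoculture and 46.2 CPM (44.6 to 47.8) in coculture, 2.79-fold lower (2.69 to 2.90). It was at 30.3 CPM (29.5 to 31.1) in resistant coculture and 31.3 CPM (30.6 to 31.9) in resistant monoculture, a ratio of 0.969 (0.937 to 1.00). The lineages stood 4.12-fold apart (4.01 to 4.24) in monoculture and 1.52-fold apart (1.46 to 1.59) in coculture. Its G1 and cycling levels were 139 and 66.7 CPM in sensitive monoculture, 56.1 and 35.4 in sensitive coculture, 34.8 and 26.4 in resistant coculture and 35.5 and 27.5 in resistant monoculture. Cycling cells were thus the lower ones in each population, 2.08-fold (1.95 to 2.23) in sensitive monoculture and 1.29-fold (1.24 to 1.35) in resistant monoculture.

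LINC02303, the non-coding RNA, had few UMIs in resistant cells. Sensitive cells had 81.7 CPM (79.9 to 83.6) in monoculture and 29.5 CPM (28.2 to 30.7) in coculture, 2.78-fold lower (2.64 to 2.91). It was at 1.62 CPM (1.45 to 1.81) in resistant coculture, from 324 UMIs, and at 0.0886 CPM (0.0568 to 0.132) in resistant monoculture, from 24 UMIs. The fold between the monocultures was 923 (620 to 1441). In sensitive monoculture its G1 level was 88.4 CPM and its cycling level 40.8, with 50.8 CPM in S cells and 31.3 in G2M cells. In sensitive coculture the G1 and cycling levels were 39.1 and 19.0 CPM, so cycling cells were lower in both sensitive populations, 2.17-fold (1.99 to 2.37) and 2.05-fold (1.87 to 2.25). In resistant coculture the levels were 1.96 and 1.33 CPM, and in resistant monoculture 18 and 6 UMIs are too few for a comparison.

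**Figure D1:**
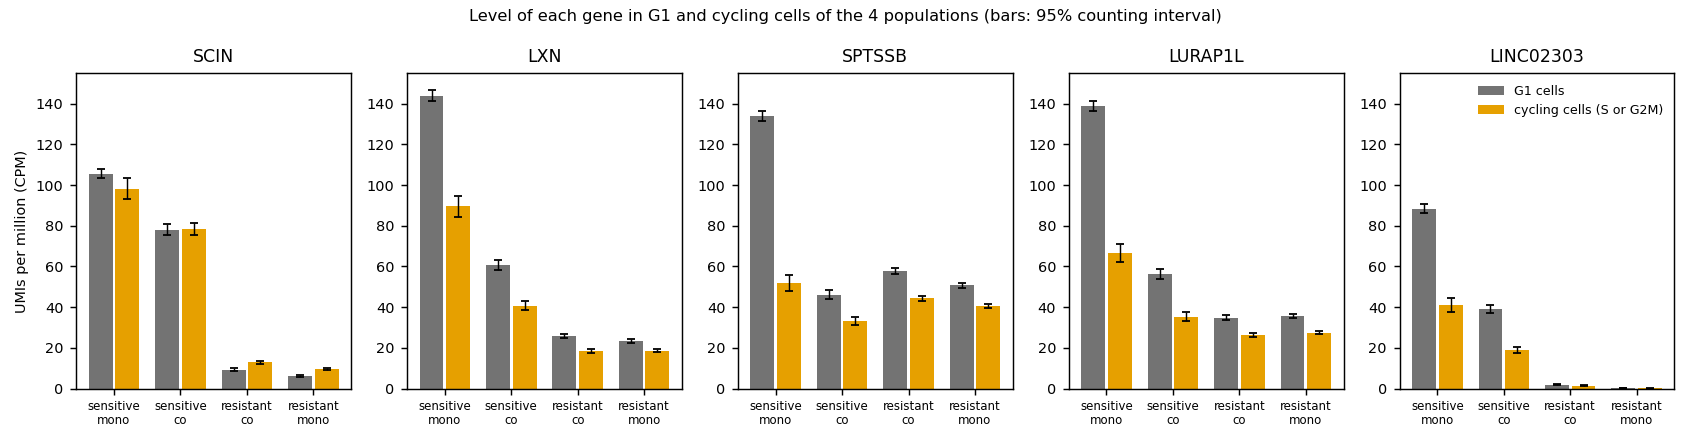
Level in CPM of the 5 members in G1 and cycling cells of the 4 populations, with bars of 95% counting intervals. The resistant populations lie far below the sensitive ones for SCIN and LINC02303, and cycling cells lie below G1 cells for each member but SCIN.

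Members lower in cycling than in G1 cells were counted in each population. The choice took genes high in sensitive monoculture, with 11.0% of cells cycling, against sensitive coculture and resistant monoculture, with 44.7% and 50.0%. That choice itself favours genes lower in cycling cells, and it used cells counted here. Nothing is therefore read from these counts, medians and ranks beside those of all genes. A log2 ratio of -0.5 or less was reached in sensitive monoculture by 4 of 5 members, beside 8.27% of all genes, with values of -1.36 for SPTSSB, -1.10 for LINC02303, -1.05 for LURAP1L and -0.68 for LXN. It was reached in sensitive coculture by 3 of 5, beside 2.8% of all genes, with -0.999 for LINC02303, -0.65 for LURAP1L and -0.57 for LXN, while SPTSSB was at -0.47. It was reached by 0 of 5 in resistant coculture, beside 1.64%, and by 0 of 4 with enough UMIs in resistant monoculture, beside 1.35%. LXN, SPTSSB and LURAP1L were nevertheless below 0 there, between -0.46 and -0.30. With stricter limits on the phase scores the count was 4 in sensitive monoculture, beside 12.4% of all genes, 4 in sensitive coculture, beside 6.39%, 4 in resistant coculture, beside 4.17%, and 2 in resistant monoculture, beside 3.35%, so the count in the resistant populations depended on these limits. Calls in sensitive coculture depended on the settings too. There LURAP1L was at -0.34 with a mitochondrial share below 15%, and LXN at -0.48 with at least 2 own transgene UMIs. SPTSSB ran from -0.59 to -0.26 over the alternatives. A log2 ratio of 0.5 or more was reached by SCIN in resistant monoculture, at 0.51, and by no other member in any population, beside 6.45% of all genes there and 9.7%, 7.19% and 6.18% in sensitive monoculture, sensitive coculture and resistant coculture. The SCIN value ran from 0.25 to 0.74 over the alternatives tried. The median over the members was -1.05, -0.57, -0.37 and -0.31 for sensitive cells in monoculture and coculture and for resistant cells in coculture and monoculture, and the median over all genes lay between -0.01 and 0.03. Of 2415 genes whose mean was 50 CPM or more in sensitive monoculture, SPTSSB was the gene ranked 2 from the lowest, LINC02303 ranked 6, LURAP1L 9, LXN 34 and SCIN 577.

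**Figure D2:**
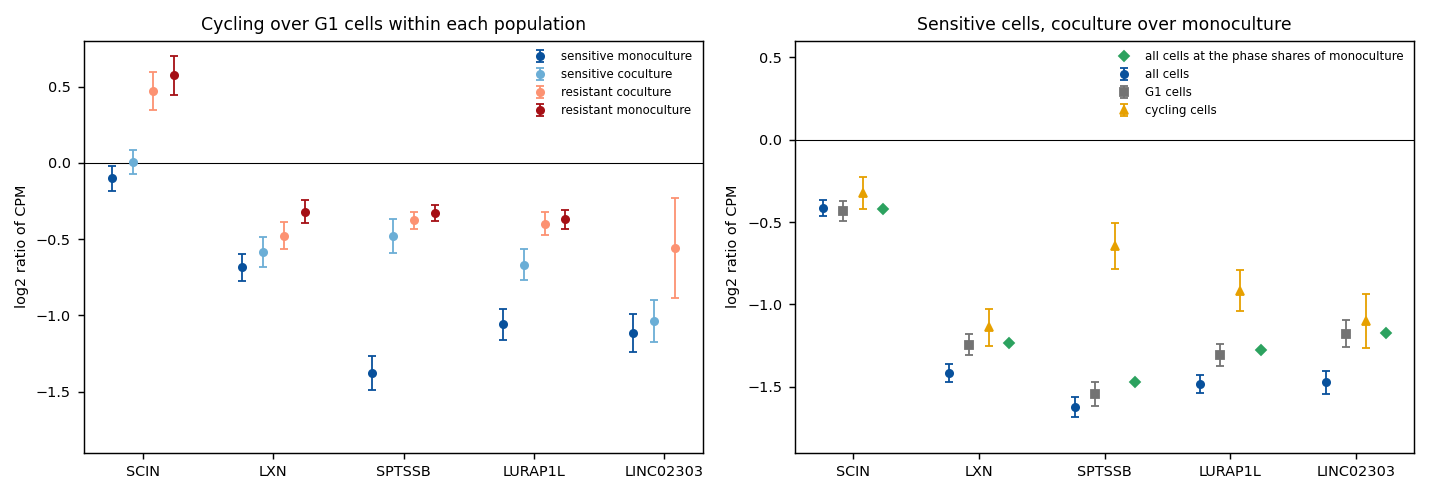
Log2 ratio of CPM, without a pseudocount, for each member, between cycling and G1 cells of each population (left) and between coculture and monoculture of sensitive cells (right: all, G1 or cycling cells, and coculture weighted to the monoculture phase shares), with bars of 95% counting intervals. SCIN alone lies at or above 0 between cycling and G1 cells in 3 of the 4 populations, and LINC02303 in resistant monoculture, with 24 UMIs, is left out of the comparison of phases.

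The G1 cells were also divided into 5 equal bins of the larger of the deposited S and G2M scores, which order cells by how strongly they express cycle genes. In sensitive monoculture SPTSSB went from 179 CPM in the lowest bin through 146, 147 and 126 to 81.2 CPM in the highest. LXN went from 179 to 119 CPM, with its lowest value of 108 CPM in the fourth bin, and LURAP1L from 157 to 117 CPM. These 3 members were thus already lower in the G1 cells with higher scores. SCIN stayed between 102 and 109 CPM, and LINC02303 between 74.8 and 94.8 CPM with its lowest value in the lowest bin. The median UMIs per cell rose from 23488 to 29202 over these bins, and the share of cells in cluster 8, described below, fell from 36.4% to 9.12%. Without cluster 8, SPTSSB still went from 94.5 to 62.2 CPM, LXN from 183 to 109 CPM and LURAP1L from 138 to 110 CPM. SPTSSB had the same direction in the other populations, from 70.5 to 36.1 CPM in sensitive coculture, 77.4 to 45.7 in resistant coculture and 68.2 to 39.4 in resistant monoculture. The scores share the UMIs of the cells with these levels, so this is a description.

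**Figure D3:**
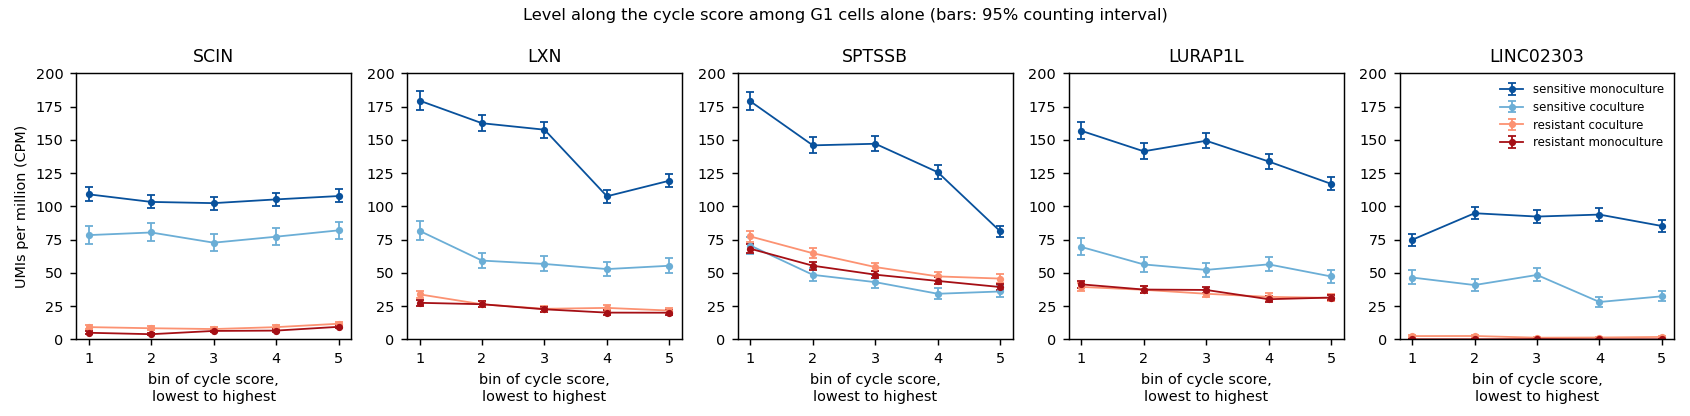
Level in CPM of each member in 5 equal bins of G1 cells by the larger of the S and G2M scores, for each population, with bars of 95% counting intervals. SPTSSB, LXN and LURAP1L are lower in the highest bin than in the lowest in each population, and SCIN in sensitive monoculture stays between 102 and 109 CPM.

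Sensitive coculture held more cycling cells than sensitive monoculture, with 52.0% against 86.0% of UMIs from G1 cells, so the comparison of coculture with monoculture was repeated at one phase. In G1 cells alone the log2 ratio was -0.43 for SCIN, -1.23 for LXN, -1.52 for SPTSSB, -1.29 for LURAP1L and -1.16 for LINC02303, and 4 of 5 members were at -1 or less, beside 0.843% of all genes. In cycling cells alone it was -0.32, -1.12, -0.63, -0.90 and -1.06 in the same order, and 2 of 5 were at -1 or less, beside 0.464% of all genes. This contrast chose members, and these are parts of the same cells, so nothing is read from either count. The difference of SPTSSB was smaller in cycling than in G1 cells. Within a phase the populations still lay in different deposited clusters, described below, with 58.4% of sensitive monoculture cells in cluster 4 and 20.5% in cluster 8, and 52.8% of sensitive coculture cells in cluster 3. In G1 cells of cluster 3, 227 in monoculture and 868 in coculture, the levels were 102 and 84.1 CPM for SCIN, 118 and 62.4 for LXN, 45.2 and 38.2 for SPTSSB, 87.0 and 51.1 for LURAP1L, and 59.3 and 38.6 for LINC02303. SPTSSB thus differed far less there than over all G1 cells, where it was at 134 and 46.0 CPM. The clusters were made from these cells, so this is a description. When the coculture levels of G1, S and G2M cells were weighted by the phase shares of the monoculture, the log2 ratios were -0.41, -1.22, -1.45, -1.26 and -1.15. These were 100%, 87.3%, 90.7%, 86.2% and 79.9% of the unweighted ones. RNA of resistant cells in sensitive coculture barcodes would also lower the levels of members that resistant coculture cells have less of. SPTSSB was at 50.5 CPM in resistant and 39.8 CPM in sensitive coculture, though at 45.4 and 123 CPM in the monocultures. The part of such RNA in the differences was not tested. If the whole rise of MGP, a gene far higher in resistant cells (404 CPM in sensitive monoculture, 1041 in sensitive coculture and 5983 in resistant coculture), came from RNA of resistant cells, its share would be 11.4%, which alone gives a log2 ratio of -0.18 for a gene that resistant cells lack. The rise was not even: 200 sensitive coculture cells (9.71%) lay in mostly resistant clusters, with MGP at 3585 CPM against 774 in the others. There SCIN was at 39.5 against 82.3 CPM, LXN 26.3 against 53.7, SPTSSB 46.8 against 39.0, LURAP1L 41.9 against 46.6 and LINC02303 17.2 against 30.7. The part of these cells in the differences was not tested.

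Between the monocultures, G1 cells alone gave log2 ratios close to those of all cells for LXN, SPTSSB and LURAP1L. SCIN was 16.6-fold (15.5 to 17.9) lower in resistant G1 cells, against 13.1-fold (12.5 to 13.8) in all cells. Cycling cells alone gave smaller log2 differences than all cells. For LINC02303 this depended on the pseudocount of 1 CPM, with 0.0422 CPM in resistant and 40.8 CPM in sensitive cycling cells. In G1 cells, resistant over sensitive monoculture stood at or below -1 for 5 of 5 members, beside 4.28% of all genes, at -3.86 for SCIN, -2.58 for LXN, -1.38 for SPTSSB, -1.94 for LURAP1L and -6.29 for LINC02303. In cycling cells it stood at -3.25 for SCIN, -2.20 for LXN, -0.34 for SPTSSB, -1.25 for LURAP1L and -5.33 for LINC02303, so SPTSSB was no longer at -1 or less. The contrast between the monocultures also chose members, from the same cells, so nothing is read from the count in G1 cells. In coculture, which compares the lineages within 1 library, 3 of 5 members were at -1 or less in resistant over sensitive cells, beside 1.29% of all genes. Those were LINC02303 at -3.54, SCIN at -2.69 and LXN at -1.19, while LURAP1L was at -0.59 and SPTSSB at 0.34. The choice of members used the sensitive coculture levels, and choosing genes that are low there raises this ratio, so nothing is read from the count. Corrected for the RNA of the other lineage, by the MGP share above and the FABP7 share below, LINC02303, SCIN, LXN, LURAP1L and SPTSSB were at -4.87, -3.33, -1.40, -0.69 and 0.40. With a pseudocount of 10 CPM, LXN was at -0.94 and so no longer at -1 or less. The comparisons with sensitive monoculture share its cells, and those with sensitive coculture share that population, so they are not independent of each other.

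Resistant cells differed little between coculture and monoculture for LXN, SPTSSB and LURAP1L, with log2 ratios of 0.06, 0.15 and -0.04. SCIN was 1.41-fold higher in coculture (1.33 to 1.50) and LINC02303 18.3-fold higher (12.1 to 29.0). At a log2 ratio of 1 or more, LINC02303 was 1 of 5 members, beside 0.038% of all genes, and 0 members were at -1 or less, beside 0% of all genes. RNA of sensitive cells moved with these values. FABP7, which was at 0.808 CPM in resistant monoculture, was at 14.4 CPM in resistant coculture and 289 CPM in the sensitive cells of that library. The ratio of these coculture levels, 4.99%, taken as a share of sensitive-cell RNA, would give 1.47 of the 1.62 CPM of LINC02303 and 3.91 of the 11.3 CPM of SCIN. Corrected for that share, the log2 ratio of coculture to monoculture was 0.09 for LINC02303 and -0.04 for SCIN. The FABP7 share was taken over all resistant coculture cells. Among them, 146 cells (2.32%) lay in clusters made mostly of sensitive cells and held 842 of the 2881 FABP7 UMIs. They had mCherry at 52.7 CPM and 0 mVenus UMIs, as had every annotated resistant cell, so that 0 tells nothing about doublets. Their MGP was at 1705 CPM and their FABP7 at 165 CPM, against 6095 and 10.5 CPM in the other resistant coculture cells. They held 34.6% of the LINC02303 UMIs and 13.6% of the SCIN UMIs of their population, at 21.9 and 60.0 CPM. Without them LINC02303 was at 1.09 CPM and SCIN at 9.99 CPM in resistant coculture. By the study's methods, doublets predicted with scrublet were taken out before the cells were clustered. The quality limits given there, applied anew, left 3329 and 7557 monoculture barcodes, the numbers annotated. No such removal was thus seen in the monocultures, and for the coculture it could not be told. In scrublet scores computed anew, 267 annotated resistant coculture cells were above 0.25. The part of free RNA, remaining doublets or such cells in the difference was not tested beyond these values.

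The deposited clusters separated the members further. Clusters were made from these same cells, so their levels are descriptive. In sensitive monoculture SPTSSB was at 354 CPM in cluster 8, which held 681 cells, 20.5% of the population, and at 79.6 CPM in all other cells, a 4.45-fold difference (4.29 to 4.62). This cluster held 45.2% of the SPTSSB UMIs of the population, and 0.294% of its cells were cycling. LURAP1L was 1.64-fold higher there (1.57 to 1.71), at 192 against 117 CPM. The other members were close to their level outside it, with SCIN at 105 and 104 CPM, LXN at 144 and 135 CPM and LINC02303 at 70.9 and 83.7 CPM. Its leading genes, seen after the values were known, were GDF15 (113 against 2.43 CPM), LINC01133 and SAT1, and its median cell had 21423 UMIs against 29929 outside it. Without cluster 8 the cycling-to-G1 log2 ratio of SPTSSB in sensitive monoculture was -0.71 in place of -1.36.

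Other clusters of sensitive monoculture held a different order of members. Cluster 4, with 1945 cells of which 4.52% were cycling, had LXN at 151 CPM and SPTSSB at 84.8 CPM. Cluster 7, of which 99.6% were cycling, had LXN at 84.7 CPM, LURAP1L at 55.7 CPM and LINC02303 at 27.7 CPM, while its SCIN was at 93.7 CPM. Cluster 12, with 156 cells, had the highest LINC02303 level at 122 CPM and the lowest LXN level at 50.1 CPM. Across the 5 clusters with at least 50 cells, SCIN varied 1.17-fold from lowest to highest, LXN 3.01-fold, LURAP1L 3.45-fold, LINC02303 4.40-fold and SPTSSB 7.75-fold. In sensitive coculture, cluster 4 (84 cells) had LXN at 113 CPM and LURAP1L at 110 CPM, against 42.0 and 32.4 CPM in cluster 7 (617 cells, 99.5% cycling).

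In resistant cells SCIN varied 14.6-fold from the lowest to the highest cluster in monoculture. In coculture SCIN varied 16.4-fold and LINC02303 31.1-fold, and both were highest in cluster 3, where 91 resistant coculture cells lay among cells of which 93.4% were sensitive, at 61.0 CPM for SCIN and 24.3 CPM for LINC02303. In cluster 10, of which 0.340% were sensitive cells, they were at 42.6 and 1.58 CPM. Clusters 6 and 10 together held 724 cells of resistant monoculture, 9.58%, and 50.5% of its SCIN UMIs, at 41.1 CPM against 4.37 CPM in the other cells, 9.40-fold apart (8.63 to 10.2). In resistant coculture the same clusters held 652 cells, 10.4%, with SCIN at 39.2 against 8.03 CPM, 4.88-fold apart (4.47 to 5.32). LXN was also higher in them, 1.73-fold (1.61 to 1.85) in monoculture and 2.25-fold (2.09 to 2.43) in coculture, while SPTSSB was at 47.6 against 45.2 CPM and LURAP1L at 28.8 against 31.5 CPM in monoculture. Their leading genes, seen after the values were known, included ENO1, HSPB11, MARCKSL1 and IGFBP5. Within resistant monoculture 58.1% of these cells were cycling, against 49.1% of the others. SCIN was at 41.4 CPM in their G1 cells and 40.8 CPM in their cycling cells, so phase made little difference inside them. In the remaining cells it was at 3.18 CPM (2.86 to 3.51) in G1 and 5.49 CPM (5.08 to 5.91) in cycling cells.

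**Figure D4:**
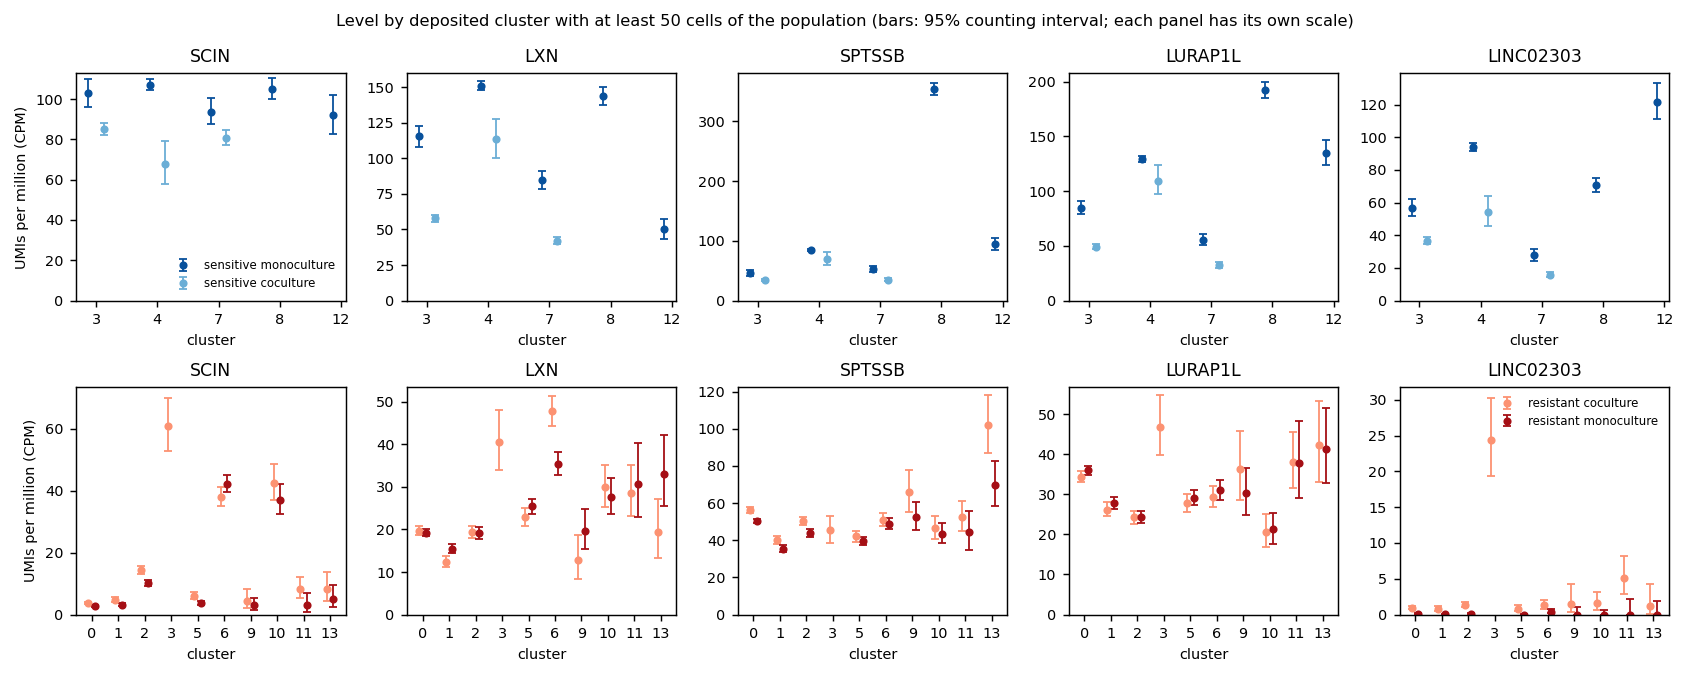
Level in CPM of each member in the deposited clusters with at least 50 cells, for sensitive and resistant populations, with bars of 95% counting intervals. SPTSSB is highest in cluster 8 of sensitive monoculture, at 354 CPM, and SCIN in resistant monoculture in clusters 6 and 10, at 42.3 and 37.0 CPM.

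To compare the shares of cells with a UMI of each member, every cell was thinned to 5000 UMIs. In sensitive monoculture 37.9% of thinned cells had a SCIN UMI, 32.8% an LXN UMI, 39.1% an SPTSSB UMI, 44.4% a LURAP1L UMI and 29.9% a LINC02303 UMI. Without thinning, 84.4%, 69.8%, 78.7%, 90.0% and 68.8% of those cells had one. In sensitive coculture the thinned shares were 31.8%, 17.1%, 17.5%, 20.2% and 13.3%, so the share fell for each member and least for SCIN. In resistant monoculture they were 3.49%, 9.02%, 19.0%, 13.9% and 0.0529%, and in resistant coculture 5.12%, 9.01%, 20.7%, 13.8% and 0.604%. FABP7, which was nearly absent from resistant monoculture, had a share of 0.344% there, above that of LINC02303, and of 4.02% in resistant coculture. The LINC02303 share in resistant coculture lay below that of FABP7. In the sensitive cells of that library, however, FABP7 was at 289 CPM and LINC02303 at 29.5 CPM. The FABP7 ratio given above would give 1.47 of the 1.62 CPM of LINC02303 and 3.91 of the 11.3 CPM of SCIN in resistant coculture. How much of their shares came from RNA of sensitive cells was not tested.

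**Figure D5:**
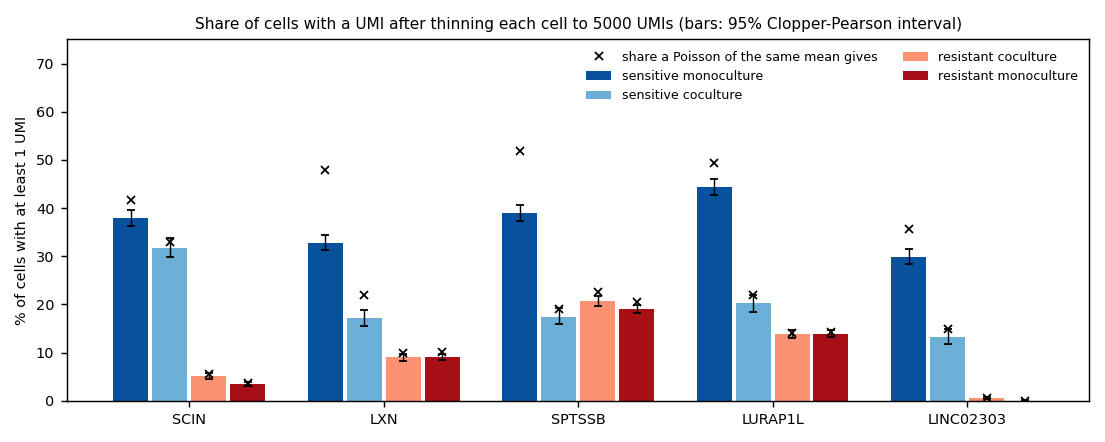
Share of cells, in percent, with at least 1 UMI of each member after thinning every cell to 5000 UMIs, for the 4 populations, with 95% exact binomial intervals and crosses for the share a Poisson of the same mean gives. LINC02303 is found in 29.9% of sensitive monoculture cells and 0.0529% of resistant monoculture cells, while SPTSSB stays between 17.5% and 20.7% in the other 3 populations.

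The members differed in how evenly they were spread over cells. In sensitive monoculture the variance of the thinned counts over their mean was 1.27 for SCIN and 1.33 for LURAP1L, where a Poisson spread gives 1, against 1.78 for LINC02303, 2.31 for SPTSSB and 3.02 for LXN. SCIN was thus found in 37.9% of cells where a Poisson spread with its mean would give 41.7%, and LXN in 32.8% where it would give 48.0%. The 10% of cells with the most LXN UMIs held 53.0% of them, and 1 cell held 83. A LURAP1L UMI was found in 52.0% (49.2 to 54.7) of sensitive monoculture cells with an SPTSSB UMI, against 39.5% (37.4 to 41.7) of those without. Both genes were higher in cluster 8, and the part of that cluster in this difference was not tested. LXN and SPTSSB showed a smaller difference, with 42.8% against 37.2%. In sensitive coculture the intervals of the LURAP1L share with and without an SPTSSB UMI overlapped, at 23.1% (18.8 to 27.8) and 19.6% (17.7 to 21.6). There the LURAP1L share was instead apart with and without an LXN UMI, at 27.3% (22.7 to 32.2) and 18.7% (16.9 to 20.7). SCIN shares did not differ beyond the intervals with any other member in sensitive monoculture.

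The relatives of the members were counted from lists of their families and pathways, at the same limits. In the gelsolin family beside SCIN, 6 of 7 genes had enough UMIs, and 1 of them, GSN, which encodes gelsolin itself, was at -1 or less in sensitive coculture over monoculture (82.4 and 35.4 CPM, log2 ratio -1.20), beside 1.04% of all genes, while 0 were between the monocultures, beside 4.1%. GSN was also lower in cycling than in G1 cells in every population, by -0.92 in sensitive monoculture and -0.53 to -0.59 in the others. SVIL was at -0.82 and FLII at -0.26 in coculture over monoculture, and CAPG, VIL1 and AVIL were at 1.6 CPM or less. Of the latexin and carboxypeptidase genes beside LXN, RARRES1, the relative of latexin, and CPE, which trims peptide hormones, were at -1 or less in resistant over sensitive monoculture, 2 of 5 genes beside 4.1% of all, with 21.9 and 1.62 CPM for RARRES1 (-3.13) and 132 and 25.1 CPM for CPE (-2.34). In coculture over monoculture of sensitive cells they were at -0.80 and -0.95, and 0 of 4 reached -1.

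Among the sphingolipid synthesis genes beside SPTSSB, 17 had enough UMIs. In sensitive coculture over monoculture 0 of 17 were at -1 or less, beside 1.04% of all genes, and in resistant over sensitive monoculture 3 were at -1 or less, beside 4.1% of all genes, and 2 at 1 or more, beside 2.16%. The lower ones were DEGS1, a ceramide desaturase, at -1.41, SPTSSA at -1.10 and UGCG, which makes glucosylceramide, at -1.07. The higher ones were the ceramide synthases CERS1 at 1.45 and CERS4 at 1.31. Both had low levels in sensitive and resistant monoculture, with CERS1 at 0.436 and 2.93 CPM and CERS4 at 3.72 and 10.7 CPM. SPTSSA, the paralog of SPTSSB, was at 247, 138, 142 and 115 CPM in the populations in the same order, and was lower in cycling cells in each, by -0.61, -0.48, -0.46 and -0.44. SPTLC1 and SPTLC2, named here after their values were seen because they are subunits of the enzyme that SPTSSB activates, were at -0.22 and 0.29 between the monocultures. Of the LURAP1 family and its partners beside LURAP1L, 1 of 4 measured genes, the kinase CDC42BPA, was at -1 or less between the monocultures, at -1.08, beside 4.1% of all genes, and LURAP1 itself had 2 to 4 UMIs in each population.

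Of 20 genes of arrest and quiescence, 18 had enough UMIs, and 0 were at -1 or less in sensitive coculture over monoculture, beside 1.04% of all genes, while RBL1 was at 1.00, beside 1.53% of all genes at 1 or more. Between the monocultures 5 of 18 were at -1 or less in resistant cells, beside 4.1% of all genes, namely the CDK inhibitors CDKN1A at -1.28, CDKN2B at -1.54, CDKN2A at -1.0 and CDKN2C at -1.08 and the antiproliferative gene BTG2 at -1.30, and RBL1 at 1.06 and CDKN1C at 1.04 were at 1 or more, beside 2.16%. CDKN1C had low levels, at 0.218 CPM in sensitive and 1.50 CPM in resistant monoculture. In sensitive monoculture 4 of 17 genes of this list were at -0.5 or less in cycling cells, beside 8.27% of all genes, and 3 at 0.5 or more, beside 9.7%. The lower ones were CDKN2B at -1.01, CCNG2 at -0.82, BTG2 at -0.62 and BTG1 at -0.59, and the higher ones were CDKN2C at 2.23, RBL1 at 1.58 and CDKN2D at 0.90. The median of this list in that comparison was 0.01, beside -1.05 for the members, a low value that the choice of members favours. Of 12 genes of a cycling list, 9 were at 1 or more in sensitive coculture over monoculture, with a median of 1.53 (log2). All 12 were higher in cycling than in G1 cells of each population, which the phase calls, made from genes of this kind, fix in advance.

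The other 7 genes among the lowest in either contrast, ALDH2, ANKRD37, FABP7, IGFBP5, MUCL1, S100A1 and STC2, were below 0 in cycling over G1 cells of sensitive monoculture, as were 5948 of all 11747 genes. Their log2 ratios ran from -1.48 to -0.06 with a median of -0.49, against -1.05 for the members. In sensitive coculture their median was -0.68, against -0.57.

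The genes most like a member were taken by Pearson's r of log2(CPM + 1) over 12 sums, the 3 phases of the 4 populations, over 4685 genes whose mean was 20 CPM or more. Sums of 1 library share its preparation and depth, so r is a description. For SCIN they were TMPRSS3 (0.991), ELOVL2 (0.991) and OTUD6B-AS1 (0.984), and for LXN they were SKP1 (0.991), P4HA2 (0.990) and DBI (0.988). For SPTSSB they were IGFBP5 (0.978), TMCO3 (0.962) and TAF7 (0.962), for LURAP1L ZNF91 (0.988), ASAH1 (0.984) and WASHC5 (0.982), and for LINC02303 AK3 (0.991), ATXN2 (0.988) and LIMCH1 (0.987). Among the members SCIN and LINC02303 were most alike, at 0.969, followed by LXN and LURAP1L at 0.956, and SCIN and SPTSSB were at 0.205.

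LXN overlaps GFM1, a mitochondrial translation factor gene on the opposite strand, and LURAP1L overlaps LURAP1L-AS1. Whether the counting used strand is not given in the sources used here, so reads of overlapping stretches may be assigned to either gene. GFM1 was at 41.4 CPM in sensitive monoculture and 33.1 CPM in resistant monoculture, a log2 ratio of -0.31, and LURAP1L-AS1 had 0 UMIs in both monocultures. Of the 30 nearest measured genes, 3 on each side of each member, 5 were at -1 or less in resistant over sensitive monoculture, beside 4.1% of all genes. They were RARRES1 at -3.13, 24.2 kb from LXN, SERPINI1 at -1.47, 6362 kb from SPTSSB, MPDZ at -1.44 and NFIB at -1.05, 283 and 1259 kb from LURAP1L, and LINC00871 at -1.13, 175 kb from LINC02303. The 6 genes around LURAP1L lay between -1.44 and -0.61, and those around SCIN between -0.94 and 0.15. In sensitive coculture over monoculture 0 of the 30 were at -1 or less, beside 1.04% of all genes, and the lowest was at -0.80.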

How the data were processed

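RNA of single cells was measured with 10X Genomics 3' chemistry in 3 libraries. The authors aligned reads with Cell Ranger 3.0.2 to GRCh37, and the deposited UMI counts of each gene in each barcode are not normalized. Their deposited annotation gives each cell's UMI count, its phase score for S and G2M, its mitochondrial percent, and the phase, cluster and population, made by the authors in Seurat. A further 8 annotation columns were not used. Barcodes outside the annotation entered only where said. The libraries held 8643 (sensitive monoculture), 20227 (coculture) and 11502 (resistant monoculture) barcodes with medians of 19196 to 31493 UMIs.

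Genes without a symbol took 0.523% to 0.591% of UMIs and did not enter any sum. UMIs were summed per population, phase or cluster, which gave 96247731, 70896822, 199632131 and 270891547 UMIs for sensitive cells in monoculture and coculture and for resistant cells in coculture and monoculture, and were expressed as CPM. Log2 ratios used a pseudocount of 1 CPM, which understates the difference of low genes, and genes with at least 50 UMIs in the sums compared. Folds and CPM ratios carry no pseudocount. Thresholds were a log2 ratio of 1 between populations and 0.5 between phases. Sums carry exact Poisson intervals, ratios of sums exact intervals conditional on their total, and shares exact Clopper-Pearson intervals, all at 95%. With 1 library per condition no test was run. Shares used cells thinned to 5000 UMIs without replacement. Promoters came from RefSeq (GRCh38.p14), where 4 of the 5 members matched by symbol.

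The members, lists and comparisons were chosen with earlier results of these data known. The genes named are the 5 members, their paralogs, list genes past a log2 ratio of 1 in the contrasts that chose the members, the 3 genes most like each member, the 3 nearest measured genes on each side and the other lowest genes. Other genes named are said to have been chosen after their values were seen, or are markers of cell type or lineage, overlapping genes, or list genes past 0.5 between phases. Python 3.11.15, numpy 2.4.6, scipy 1.17.1, pandas 2.3.3 and matplotlib 3.10.9 were used. The authors' methods state that predicted doublets were removed before clustering. Their quality limits alone, however, left 3329 and 7557 barcodes of sensitive and resistant monoculture, as many as were annotated. Doublet scores were computed anew with scrublet (scanpy 1.11.5) without removing cells, and 55 to 267 cells per population scored above 0.25. TMM factors from edgeR 4.0.16 in R 4.3.3 served as scaling only. The log2 ratios and intervals were tested on simulated data. Alternatives covered pseudocounts, scaling, UMI minimums, cell filters, depth, phase thresholds and RNA of the other lineage.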

Additional observations from a re-analysis of the deposited data

Results flagged for a closer look

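Coculture over monoculture had opposite signs in the sensitive and the resistant lineage for 4 members, and these differences were not tested, since each condition had 1 library. The log2 ratio of SCIN was -0.41 in sensitive cells and 0.45 in resistant cells. That of LXN was -1.40 and 0.057, that of SPTSSB -1.60 and 0.15, and that of LINC02303 -1.44 and 1.27. The resistant values of LXN and SPTSSB were small, and that of LXN became -0.04 when corrected for RNA of the other lineage. Those of SCIN and LINC02303 moved with the share of sensitive-cell RNA given in the report.

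Cycling over G1 cells had opposite signs for SCIN, at -0.10 in sensitive monoculture against 0.43 in resistant coculture and 0.51 in resistant monoculture. This difference was not tested either.

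The members were also found in barcodes of the sensitive monoculture library that the annotation does not hold. In 5314 such barcodes, with a median of 14010 UMIs, SCIN was at 69.9 CPM, LXN at 59.3, SPTSSB at 59.9, LURAP1L at 86.2 and LINC02303 at 76.6 CPM. In 3945 such barcodes of resistant monoculture, with a median of 14030 UMIs, they were at 5.57, 16.8, 38.0, 30.3 and 0.282 CPM. The order of the lineages was thus the same as in annotated cells for each member, but the size of the differences was not. Each member was lower in these sensitive barcodes than in annotated sensitive monoculture cells. LXN was at 59.3 against 136 CPM, SPTSSB at 59.9 against 123 CPM, and LINC02303 differed least, at 76.6 against 81.7 CPM.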

How the results depend on the processing

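No paired analysis was possible because each condition had 1 library. Of 525 log2 ratios of members under the alternatives, 335 stayed within the counting interval of the reported value, 190 moved beyond it, and 0 past a threshold changed sign. Members lower by 0.5 in cycling cells of resistant coculture, 0 as reported, were 1 with a pseudocount of 0.1 CPM, with a mitochondrial share below 15% or with cells thinned to 5000 UMIs, and 4 with stricter phase scores. In resistant monoculture, 0 became 1 with the pseudocount of 0.1 CPM and 2 with stricter scores. Members higher by 0.5 in cycling cells of resistant coculture, 0 as reported, were 1 with at least 2 own transgene UMIs, with stricter scores, with G2M over G1 and, chosen after seeing the data, without resistant cells in mostly sensitive clusters. In resistant monoculture, 1 (SCIN) became 0 with a pseudocount of 10 CPM, TMM factors, at least 2 transgene UMIs, no cells above 50000 UMIs, a mitochondrial share below 15% or S over G1. Members higher by 1 in resistant coculture over monoculture, 1 (LINC02303) as reported, were 0 with a pseudocount of 10 CPM, at least 2 transgene UMIs, a mitochondrial share below 15%, the correction for the other lineage or, chosen after seeing the data, without those cells. Members lower by 1 in sensitive coculture over monoculture were 2 in place of 4 in cycling cells alone. SPTSSB moved widely: from -1.77 (thinned) to -0.63 (cycling cells alone) in sensitive coculture over monoculture, from -1.65 to -0.34 (cycling cells alone) between the monocultures, and to -0.71 between phases of sensitive monoculture without cluster 8, chosen after seeing the data. LINC02303 between the monocultures ran from -8.76 to -3.18 with the pseudocount. Leaving out cells of scrublet score above 0.25 changed no count of members. The causes were not tested. Genes lower by 1 in sensitive coculture over monoculture were 289 with a pseudocount of 0.1 CPM and 30 with 10 CPM, against 128, and those higher 375 and 40, against 188. Between the monocultures they were 944 and 135 lower, against 532, and 624 and 62 higher, against 280. In resistant over sensitive coculture they were 408 and 28 lower, against 165, and 192 and 13 higher, against 58. In resistant coculture over monoculture 32 and 1 were higher, against 5, or 3 at 500 UMIs, and 1 was lower with 0.1 CPM, against 0. Genes lower by 0.5 in cycling cells were, with 10 CPM, 191, 46, 34 and 29, against 971, 322, 204 and 170 for sensitive cells in monoculture and coculture and resistant cells in coculture and monoculture. With 0.1 CPM the last 3 were 652, 589 and 554, and at 500 UMIs the first 2 were 633 and 141. Genes higher were 589, 395, 371 and 377 with 10 CPM, against 1140, 827, 768 and 812. TMM factors moved the median of all genes by 0.09 at most.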
